A study of Homo sapiens with 6 samples.

Results

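The human genome keeps much of its zinc-finger gene repertoire in tandem arrays on chromosome 19, and 261 of the 56303 gene entries measured here are ZNF genes of that chromosome. They were chosen by name and place alone: an entry belongs if its symbol is ZNF followed by a number and at most 1 letter, and if its first exon position is on chromosome 19. Antisense and readthrough entries carry longer names and were left out, as were the 296 ZNF genes of other chromosomes, which served as a comparison together with the 2628 other genes of chromosome 19. GENCODE release 29 classes 244 of the 261 as protein-coding and 14 as pseudogenes, and 3 are not found there under their name.

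RNA was sequenced from AGS, an established line of human gastric adenocarcinoma cells grown in DMEM/F12 with serum. Cells labelled SRSF2 knockdown, which were transfected with a small interfering RNA against the splicing factor gene SRSF2 (siSRSF2, 3 libraries), were set against wild-type cells (WT, 3 libraries). All 6 libraries come from the same line, and no other agent is named for either group. The labels do not say whether WT cells received a control siRNA or whether the replicates are cultures of their own. The p-values therefore reflect only how far these libraries spread, which may be technical.

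C2H2 zinc-finger proteins bind DNA through rows of fingers, each folded around a zinc ion, and the row as a whole reads a DNA sequence. Most of the arrayed genes on chromosome 19 also encode a Krüppel-associated box (KRAB), which recruits the corepressor TRIM28. TRIM28 brings the histone methyltransferase SETDB1, heterochromatin proteins and deacetylases to the bound site, and in many cell types this machinery silences transposable elements. SRSF2 itself is a serine/arginine-rich protein that binds exons and promotes their inclusion during splicing.

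Levels are given as CPM, counts scaled to a common library size of 1e+06. SRSF2 was at 21.6, 21.8 and 24.9 CPM in siSRSF2 libraries, against 44.5, 46.4 and 44.1 CPM in WT libraries. The 3 siSRSF2 values lay below all WT values, at a log2 fold change of -0.98 (SE 0.064, adjusted p = 4.39e-13, edgeR quasi-likelihood test with Benjamini-Hochberg adjustment over 23689 genes, as for every adjusted p below). Total counts were 26610937 to 36651623 in siSRSF2 libraries and 47518943 to 50021152 in WT libraries, so a count of 3 in 1 library stood for 0.0819 to 0.113 CPM in siSRSF2 and for 0.06 to 0.0631 CPM in WT, counting error only. Of 6 epithelial markers, KRT8 and KRT18 gave nearly all of a summed 3683 to 3945 CPM in siSRSF2 and 4128 to 4545 CPM in WT, while CDH1 stayed at or below 0.442 CPM in every library. Of 4 leukocyte markers, CD3E was at 0 in 5 of the 6 libraries and PTPRC was at most 0.259 CPM. The other members of that list are not given here, so these values do not describe the list as a whole. Summed levels of markers of other cell types were 42.4 to 46.18 CPM in siSRSF2 against 19.33 to 19.81 CPM in WT for 4 fibroblast genes (mostly COL1A1) and 0.9601 to 1.963 CPM in siSRSF2 against 3.014 to 3.239 CPM in WT for 3 endothelial genes (VWF at most 0.202 CPM). The part of these markers in the ZNF results was not tested. In bulk RNA, fewer cells of a kind and less RNA per cell cannot be told apart.

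Many of these genes hold certain short strings in their promoters, as do many ZNF genes elsewhere. RefSeq (GRCh38.p14) gave a window of 250 bases before to 50 bases after the start for 213 of the 261 genes, and each window was searched on both strands, overlapping matches included, for short letter strings. CCGGAA, the core that ETS-family factors such as GABPA recognise, was found in 55.9% of the 213 windows, in 45.5% of the windows of 211 ZNF genes elsewhere, and in 17.6% of all 27305 windows. CCAAT, the core of the CCAAT box, was in 53.1% of them, in 43.6% for other ZNF genes and in 35.7% of all windows. GGGCGG, the GC box read by SP-family factors, was in 67.6%, 59.7% and 44.6% in the same order, and TATAAA in 1.88%, 4.27% and 12%. The windows held a median of 20 CG dinucleotides, against 24 for other ZNF genes and 14 for all genes. A match describes the letters only and is not a measured binding site, and genes of 1 array arose by duplication, so their windows are not independent. The windows printed next, 5′ to 3′ on the coding strand, belong to 2 sets of neighbours that moved in opposite directions (ZNF554, ZNF555 and ZNF556; ZNF615 and ZNF614) and to a rise and a fall with CCGGAA matches (ZNF419 and ZNF787). Capitals mark the ETS core, the CCAAT string and the GC box on either strand.
ZNF554: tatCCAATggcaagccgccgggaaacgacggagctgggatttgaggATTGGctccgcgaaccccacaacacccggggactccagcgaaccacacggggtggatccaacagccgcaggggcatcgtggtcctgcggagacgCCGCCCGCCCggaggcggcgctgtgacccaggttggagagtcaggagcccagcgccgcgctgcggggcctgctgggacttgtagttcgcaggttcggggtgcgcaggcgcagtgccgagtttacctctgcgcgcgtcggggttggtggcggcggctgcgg
ZNF555: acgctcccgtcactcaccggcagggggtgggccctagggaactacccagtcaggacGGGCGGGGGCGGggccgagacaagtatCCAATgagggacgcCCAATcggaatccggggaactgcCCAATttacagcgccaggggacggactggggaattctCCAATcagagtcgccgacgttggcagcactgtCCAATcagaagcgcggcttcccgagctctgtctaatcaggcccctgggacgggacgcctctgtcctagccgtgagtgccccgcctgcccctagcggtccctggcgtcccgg
ZNF556: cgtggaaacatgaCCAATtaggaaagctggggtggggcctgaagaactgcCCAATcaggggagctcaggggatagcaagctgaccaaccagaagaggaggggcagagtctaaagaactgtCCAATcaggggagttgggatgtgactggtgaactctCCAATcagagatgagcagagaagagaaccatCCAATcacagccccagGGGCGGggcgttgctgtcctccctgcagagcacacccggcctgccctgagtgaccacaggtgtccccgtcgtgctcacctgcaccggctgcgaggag
ZNF615: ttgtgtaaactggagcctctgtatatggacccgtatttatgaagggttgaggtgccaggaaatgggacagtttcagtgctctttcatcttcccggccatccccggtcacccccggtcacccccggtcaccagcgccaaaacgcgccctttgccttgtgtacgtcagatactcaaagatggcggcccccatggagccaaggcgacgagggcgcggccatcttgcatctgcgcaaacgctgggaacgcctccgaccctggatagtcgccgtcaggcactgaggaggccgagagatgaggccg
ZNF614: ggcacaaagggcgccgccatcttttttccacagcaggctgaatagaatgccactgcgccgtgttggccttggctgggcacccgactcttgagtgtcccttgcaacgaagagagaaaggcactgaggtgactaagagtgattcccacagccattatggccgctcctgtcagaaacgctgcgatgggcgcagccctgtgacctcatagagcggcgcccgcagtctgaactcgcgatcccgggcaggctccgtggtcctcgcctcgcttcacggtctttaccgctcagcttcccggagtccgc
ZNF419: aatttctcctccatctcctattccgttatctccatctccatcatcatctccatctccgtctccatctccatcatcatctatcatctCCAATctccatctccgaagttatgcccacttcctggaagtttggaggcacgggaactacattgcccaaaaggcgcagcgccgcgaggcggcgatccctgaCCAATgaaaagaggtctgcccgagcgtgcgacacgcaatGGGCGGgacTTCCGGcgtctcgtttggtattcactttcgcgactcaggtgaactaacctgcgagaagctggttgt
ZNF787: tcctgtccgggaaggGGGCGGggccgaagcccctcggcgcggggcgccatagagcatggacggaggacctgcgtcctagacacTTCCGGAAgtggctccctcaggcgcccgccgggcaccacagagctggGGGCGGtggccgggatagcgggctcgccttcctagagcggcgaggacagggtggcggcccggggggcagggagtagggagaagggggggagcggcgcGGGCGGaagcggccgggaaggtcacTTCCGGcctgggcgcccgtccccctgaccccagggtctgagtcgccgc

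Those windows lie at chr19:2819618-2819917 (ZNF554, plus strand), chr19:2841225-2841524 (ZNF555, plus), chr19:2867085-2867384 (ZNF556, plus), chr19:52008162-52008461 (ZNF615, minus), chr19:52028330-52028629 (ZNF614, minus), chr19:57487500-57487799 (ZNF419, plus) and chr19:56121246-56121545 (ZNF787, minus). ZNF555 and ZNF556 each hold 5 CCAAT strings in windows that otherwise differ, with 25 CG dinucleotides in ZNF555 and 8 in ZNF556. ZNF554 holds 2 CCAAT and 2 GGGCGG strings and 34 CG dinucleotides. ZNF615 and ZNF614 hold none of the 3 strings. ZNF787 holds 3 CCGGAA matches, of which 2 overlap on opposite strands, and no CCAAT, while ZNF419 holds 1 CCGGAA and 2 CCAAT. Over the groups of genes described next, CCGGAA was in 19 of 34 windows of genes higher in siSRSF2 (55.9%), 20 of 46 of genes lower in siSRSF2 (43.5%), 47 of 73 of genes not past the test (64.4%) and 33 of 60 of genes too low to test (55.0%). GGGCGG was in 82.4%, 63.0%, 60.3% and 71.7% of the same 4 groups. These shares are a description with no test.

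ZNF genes of chromosome 19 changed in both directions after SRSF2 knockdown, mostly by small amounts. Of the 261, 176 passed the filter on low counts and were tested. Among these, 40 were higher in siSRSF2 (22.7%, where 30.1% of all tested genes were higher) and 51 were lower (29.0%, where 29.0% of all tested genes were lower), and 85 were not past the test. Called genes thus made up 51.7% of the tested ZNF genes of chromosome 19, 62.5% of 232 tested ZNF genes elsewhere, 60.6% of 1265 other tested genes of chromosome 19 and 59.1% of all 23689 tested genes. Of all tested genes, 13.4% were higher and 5.91% lower by over 2-fold. Among the ZNF genes of chromosome 19, changes over 2-fold were found for 13, of which 8 were higher and 5 lower. Together these were 7.39%, against 9.05%, 22.8% and 19.3% in the same 3 comparison sets. The median log2 fold change of the ZNF genes was -0.05 (quartiles -0.31 and 0.29), beside 0.02 over all tested genes, and the median size of change regardless of sign was 0.30, beside 0.48. Scaling by library totals alone moved the median of all genes to 0.15 and that of the ZNF genes to 0.08, and turned the split of 40 higher and 51 lower into 50 higher and 30 lower. In 89 of the 91 called genes the siSRSF2 and WT values did not overlap, and 98 of the 176 tested genes showed no overlap in all, where 63.8% of all tested genes did. Relative to the median of all genes, the ZNF median was at -0.07 under both scalings.

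The remaining 85 genes were too low to test, with a highest mean of 0.243 CPM, a highest total of 54 counts over the 6 libraries and no count at all for ZNF878 and ZNF861P, named here after their values were seen. Of the 176 tested, 168 reached the filter's 0.238 CPM in every library, 6 passed through the siSRSF2 libraries alone (3 of them called) and 1 through the WT libraries alone (not called). The 261 genes together held 0.1501%, 0.1554% and 0.1549% of all counts in siSRSF2 and 0.1537%, 0.157% and 0.1517% in WT. Those shares overlapped between the groups. After TMM scaling the same sums were 1470.3, 1478.3 and 1460.0 CPM in siSRSF2 and 1607.9, 1632.6 and 1599.4 CPM in WT, without overlap.

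Expression level goes with both the share of calls and the size of change, so the genes were also set beside genes of their own level. Between 3 and 10 CPM, where 78 of them lie, 52.6% were called and 2.56% were called and over 2-fold, against 60.8% and 10.8% of 74 other ZNF genes and 69.7% and 21.5% of 2374 protein-coding genes that are not ZNF genes. Between 10 and 30 CPM, the shares were 66.7% and 5.56% of 36 genes, against 67.6% and 8.45% of 71 other ZNF genes and 77.6% and 14.2% of 3145 other protein-coding genes. Between 1 and 3 CPM they were 35.9% and 10.3% of 39 genes, against 43.5% and 8.7% of 23 other ZNF genes and 60.1% and 34.6% of 1357 other protein-coding genes. Thus in each of these 3 level ranges the share over 2-fold was below that of other protein-coding genes, while at 0.3 to 1 CPM it was 35.7% of 14 genes beside 37.3% of 1307, with 57.1% against 42.8% called. At 30 CPM or more, 4 of 6 genes were called (66.7%, against 83.5% of 4591 other protein-coding genes), and none of the 6 moved over 2-fold (against 11.7%). These shares were not tested against each other.

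**Figure D1:**
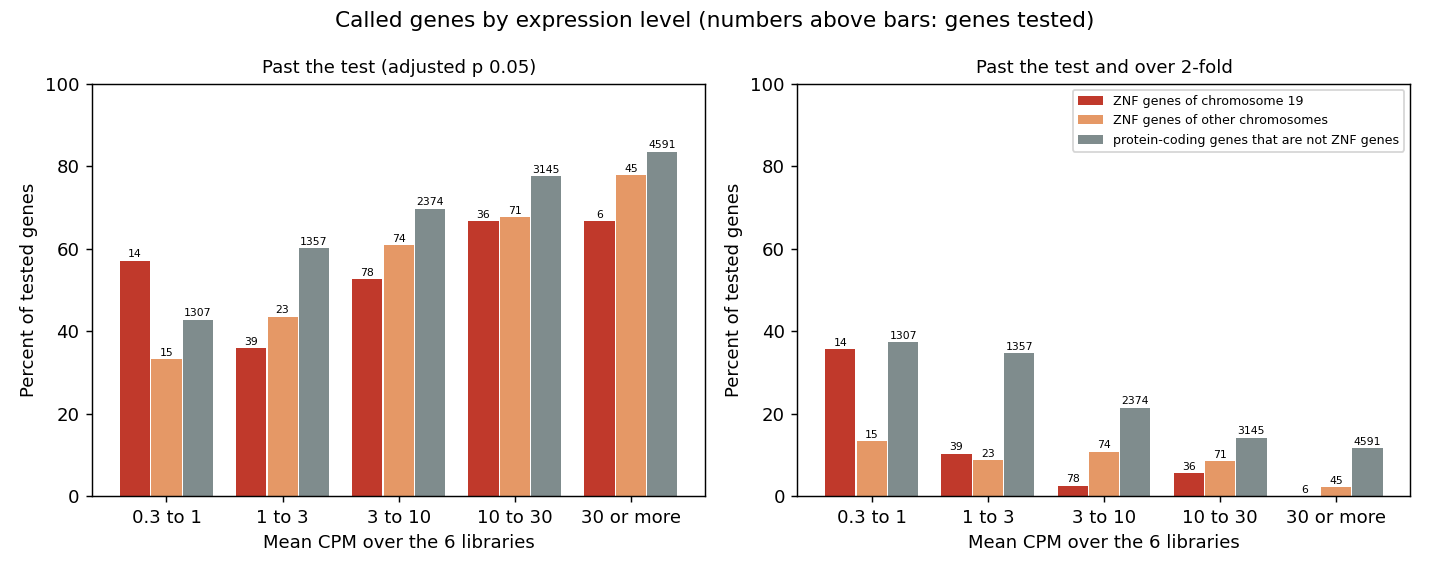
Percent of tested genes past the test (left) and past it with a change over 2-fold (right) by mean CPM, for ZNF genes of chromosome 19, ZNF genes of other chromosomes and other protein-coding genes, with the number tested above each bar. Between 3 and 10 CPM, 2.56% of the chromosome 19 ZNF genes were called and over 2-fold, against 21.5% of other protein-coding genes.

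The largest rises are given first. For ZNF846, ZNF836 and ZNF221, at least 1 WT library was below the filter's 0.238 CPM, so they passed the filter through their siSRSF2 libraries alone. The test itself used all 6 libraries. A low WT level among these genes follows in part from the filter. ZNF846, a KRAB zinc-finger gene and the last of its array by position (chr19:9751993-9793180, minus strand), was at 1.44, 1.19 and 1.10 CPM in siSRSF2 libraries, against 0.189, 0.328 and 0.126 CPM in WT libraries. These are 39, 46 and 38 counts against 9, 15 and 6 counts. All siSRSF2 values exceeded all WT values, and the log2 fold change was 2.52 (SE 0.371, adjusted p = 1.63e-06). ZNF836, which encodes a KRAB and 24 finger units (chr19:52153864-52171643, minus), was at 1.51, 1.09 and 1.10 CPM in siSRSF2, against 0.294, 0.153 and 0.379 CPM in WT. The groups again did not overlap, and the log2 fold change was 2.13 (SE 0.357, adjusted p = 1.03e-05), although ZNF836 shares 554 exonic bases with another entry of the same strand, CTC-471J1.8. ZNF554 (chr19:2819874-2835773, plus) was at 2.06, 1.66 and 2.8 CPM in siSRSF2 and at 0.42, 0.70 and 0.464 CPM in WT, a log2 fold change of 2.04 (SE 0.276, adjusted p = 4.36e-07). Its next neighbour ZNF555 (chr19:2841435-2860484, plus) rose as well, with 2.28, 2.65 and 2.63 CPM in siSRSF2 against 1.05, 0.919 and 1.03 CPM in WT and a log2 fold change of 1.33 (SE 0.209, adjusted p = 4.03e-06).

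Of the other rises, ZNF233 (chr19:44259880-44275317, plus) was at 1.55, 2.08 and 1.85 CPM in siSRSF2 and at 0.63, 0.438 and 0.506 CPM in WT. Its log2 fold change was 1.80 (SE 0.267), but 170 of its exonic bases are shared with ZNF235 on the opposite strand, and the sources used here do not say whether the counting used strand. The pseudogene entry ZNF887P rose by a log2 fold change of 1.22 (SE 0.250) to a mean of 2.18 CPM in siSRSF2 against 0.933 CPM in WT, and also shares exon positions with a neighbouring entry. ZNF524, which lacks a recognised KRAB, had a log2 fold change of 0.998 (SE 0.302) at 1.22 CPM in siSRSF2 and 0.604 CPM in WT. ZNF419 was the rise with the highest WT level among these 8, at 6.70, 5.55 and 6.12 CPM in siSRSF2 against 3.27, 2.54 and 3.41 CPM in WT. No siSRSF2 value of ZNF419 reached down to the WT range, and its log2 fold change was 0.99 (SE 0.142, adjusted p = 1.16e-06). ZNF419 shares exon positions with the same-strand entry AC003005.4. A further pair of genes under 1 CPM, ZNF221 and ZNF546, passed 2-fold at log2 fold changes of 1.83 (SE 0.416) and 1.07 (SE 0.338), and is named here after the values were seen.

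ZNF556, a KRAB zinc-finger gene 25900 bases beyond ZNF555 by start position (chr19:2867335-2883445, plus), had 2.91, 2.28 and 2.54 CPM in siSRSF2, against 6.51, 6.35 and 6.13 CPM in WT. Every WT value was above every siSRSF2 value, and the log2 fold change was -1.31 (SE 0.138, adjusted p = 5.74e-09). ZNF574, which encodes 18 finger units without a recognised KRAB (chr19:42068477-42081549, plus), had 3.61, 3.04 and 3.93 CPM in siSRSF2, against 8.21, 8.47 and 8.39 CPM in WT, and a log2 fold change of -1.25 (SE 0.123, adjusted p = 1.62e-09). ZNF614 (chr19:52012765-52030240, minus) had 6.29, 6.41 and 7.16 CPM in siSRSF2, against 15.3, 14.5 and 13.1 CPM in WT, and a log2 fold change of -1.11 (SE 0.097, adjusted p = 1.74e-10). For both genes the groups stood well apart. ZNF787, another gene without a recognised KRAB (chr19:56087366-56121280, minus), had 8.10, 7.03 and 7.24 CPM in siSRSF2, against 15.1, 13.7 and 17.0 CPM in WT, and a log2 fold change of -1.04 (SE 0.098, adjusted p = 7.15e-10). None of ZNF556, ZNF574, ZNF614 and ZNF787 shares exon positions with another entry of the table. The remaining 4 of the 8 largest falls were ZNF628 (log2 fold change -1.04, SE 0.292), ZNF296 (-0.92, SE 0.247), ZNF584 (-0.88, SE 0.113) and ZNF71 (-0.83, SE 0.195), whose means in WT ran from 1.33 CPM for ZNF628 to 11.3 CPM for ZNF584. Over all called genes, the median WT level was 3.26 CPM for the 40 higher and 8.87 CPM for the 51 lower, and it was 4.49 CPM for those not past the test. The WT level enters the fold change that sorts the genes, so part of this gap follows from the sorting. On the mean over all 6 libraries, the medians were 4.45, 7.36 and 4.37 CPM in the same order. The median length of the entries differed little, at 4518, 4724 and 5069 bases in these 3 groups. Protein-coding genes that are not ZNF genes also tilted from higher to lower with rising mean level. At 1 to 3 CPM, 46.5% of 1357 such genes were higher and 13.6% lower. At 30 CPM or more, 25.7% of 4591 were higher and 57.7% lower.

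**Figure D2:**
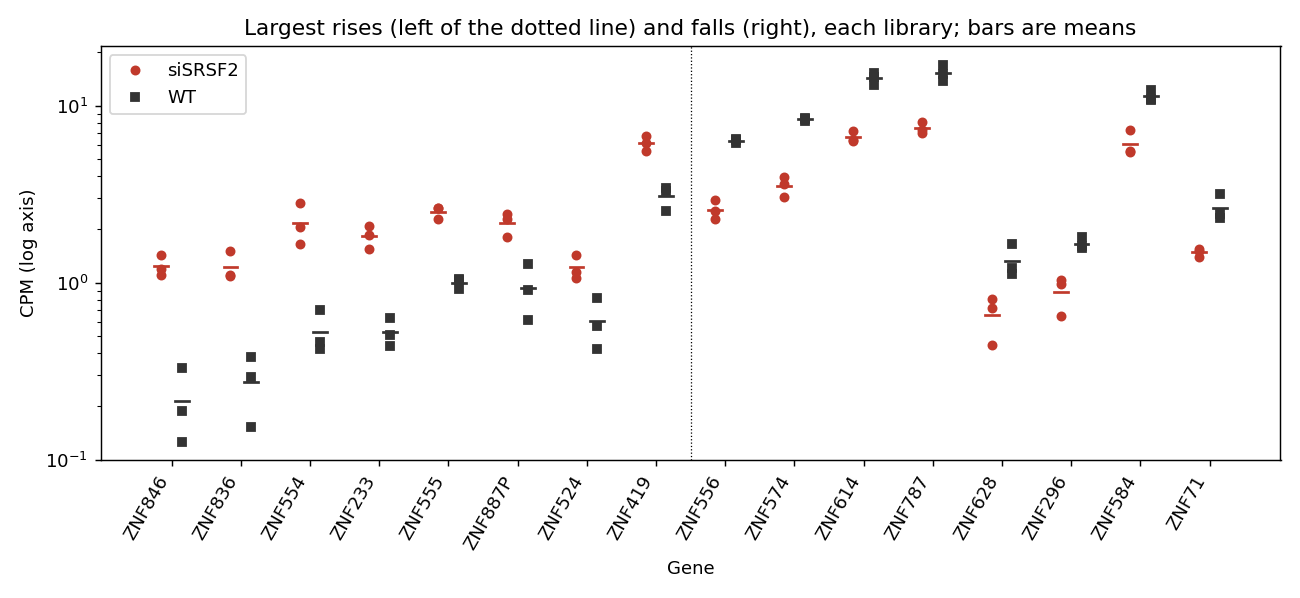
CPM in each library (log axis) of the 8 largest rises and 8 largest falls that did not overlap between groups and averaged 1 CPM or more in the higher one, siSRSF2 left of WT, with bars at the means. The rises start from 0.215 CPM (ZNF846) to 3.08 CPM (ZNF419) in WT, and the falls from 1.33 CPM (ZNF628) to 15.3 CPM (ZNF787). The floor of 1 CPM applies to WT for the falls and to siSRSF2 for the rises, so the WT ranges differ in part by selection.

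Per length of gene, the ZNF genes were lowly expressed. The 176 tested genes had a median of 1.04 FPKM (CPM per kilobase of the table's gene length), from 0.0305 to 30.3 FPKM, where all tested genes had a median of 2.13 FPKM. At the top stood ZNF146, also called OZF, a protein made almost wholly of fingers (chr19:36214602-36238774, plus), with 22.7 FPKM in siSRSF2 and 37.9 FPKM in WT. On the CPM scale it had 98.9, 88.4 and 95.2 in siSRSF2, against 156, 160 and 154 in WT. The 2 sets of values lay far apart, and the log2 fold change of -0.74 (SE 0.048, adjusted p = 5.15e-13) had the smallest p of any ZNF gene on the chromosome, with 446 exonic bases shared with ZNF565 on the opposite strand. ZNF121 came next, with 12.5 FPKM in siSRSF2 and 17.2 FPKM in WT. Its CPM values were 88.2, 90.2 and 92.4 in siSRSF2 against 123, 130 and 123 in WT, a log2 fold change of -0.47 (SE 0.047, adjusted p = 1.85e-09). ZNF428, ZNF460 and ZNF544 followed at 6.38 to 6.64 FPKM over the 6 libraries. The siSRSF2 and WT values overlapped for ZNF544 and did not for ZNF428 and ZNF460. Their log2 fold changes were -0.12 (SE 0.084, adjusted p = 0.234), -0.18 (SE 0.072, adjusted p = 0.0363) and -0.04 (SE 0.059, adjusted p = 0.595), and under library totals ZNF428 and ZNF544 changed sign and ZNF460 lost its call. ZNF460 also lost it without siSRSF2 replicate 1 (adjusted p = 0.0657) or 3 (0.175) and without WT replicate 2 (0.0545) or 3 (0.141).

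Among genes with a known target, ZNF91 and ZNF93 were not past the test and ZNF274 rose slightly. ZNF91, which silences SVA retrotransposons, was at 23.8, 24.3 and 23.3 CPM in siSRSF2, against 21.5, 25.7 and 22.2 CPM in WT. The groups overlapped, and the log2 fold change was 0.04 (SE 0.072, adjusted p = 0.65), with a negative sign when WT replicate 1 was left out or no filter was used. ZNF93, which silences a group of LINE-1 elements, was at 1.03, 1.69 and 1.33 CPM in siSRSF2 and at 1.09, 1.07 and 1.03 CPM in WT, also overlapping, at a log2 fold change of 0.36 (SE 0.249, adjusted p = 0.228). ZNF274, which recruits SETDB1 to the 3′ ends of zinc-finger genes, was at 18.2, 17.7 and 18.9 CPM in siSRSF2, against 16.9, 15.4 and 15.5 CPM in WT. Its siSRSF2 values were all higher, by a log2 fold change of 0.20 (SE 0.075, adjusted p = 0.0264), but the call was lost without siSRSF2 replicate 3 (adjusted p = 0.0932), without WT replicate 2 (0.119) or 3 (0.105), under DESeq2 (0.142) and without the filter (0.288).

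ZNF331, ZNF224, ZNF580 and ZNF558 rose further. ZNF331, an imprinted gene at the distal end of its array, was at 28.7, 31.2 and 27.2 CPM in siSRSF2, against 18.3, 17.7 and 18.3 CPM in WT, a rise of 0.68 on the log2 scale (SE 0.069, adjusted p = 2.38e-09). ZNF224, a repressor first described at the aldolase A promoter, was at 20.1, 19.6 and 17.9 CPM in siSRSF2, against 13.2, 13.8 and 12.9 CPM in WT, a rise of 0.53 (SE 0.078, adjusted p = 1.41e-06), with 2875 exonic bases shared with an entry on the opposite strand. ZNF580 was at 14.9, 13.1 and 12.4 CPM in siSRSF2 and at 8.84, 7.88 and 6.24 CPM in WT, a rise of 0.81 (SE 0.112), and shares exons on its own strand with CCDC106 and ZNF581. In all 3 genes the groups were fully separate. ZNF558, a repressor of the mitophagy gene SPATA18, rose by 0.48 (SE 0.091, adjusted p = 4.88e-05) to a mean of 14.4 CPM in siSRSF2 against 10.4 CPM in WT. ZNF382 was too low to test, with means of 0.105 CPM in siSRSF2 and 0.0707 CPM in WT.

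Along the chromosome, starts more than 1000000 bases apart were taken to separate arrays, which gave 17, of which 9 hold 5 or more of the genes and 249 of the 261 in all. The median log2 fold changes of these 9 ran from -0.12 to 0.19. Beside the counts per array given below, 30.1% of all tested genes were higher and 29.0% lower. The array from ZNF565 to ZNF573 (36182060 to 37817300) had 26 genes, of which 13 were tested, 0 rose and 5 fell, with a median log2 fold change of -0.10. The array's summed level was 142.8 CPM in siSRSF2 and 210.8 CPM in WT. Most of that difference lies in ZNF146, with means of 94.2 CPM in siSRSF2 and 157 CPM in WT. The 5 genes that fell are all at the array's proximal side. There ZNF565, ZNF146, ZNF566 and ZNF260 follow each other at log2 fold changes of -0.44, -0.74, -0.78 and -0.29, and ZNF567 lies further on at -0.36. Under the same test, 2 of the array's 13 other tested genes rose and 0 fell. ZNF566 serves as an example of these genes, with 2.8, 2.18 and 2.22 CPM in siSRSF2 against 4.24, 4.16 and 3.88 CPM in WT.

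The array from ZNF101 to ZNF254 (19668796 to 24129961), on the centromere side of the short arm, had the lowest share of calls of the 9 (33.3%, beside 59.1% of all tested genes). Of its 41 genes, 18 could be tested, 1 rose, 5 fell, none moved over 2-fold and the median was -0.12. The 23 that could not be tested include ZNF208, which encodes the most finger units of all (36), and its neighbours ZNF257, ZNF676 and ZNF729, all of which had means below 0.06 CPM in both groups. ZNF493 was the gene that rose, at 3.98, 4.05 and 3.98 CPM in siSRSF2 against 1.89, 2.87 and 1.69 CPM in WT, a log2 fold change of 0.90 (SE 0.180, adjusted p = 0.000106). Its values in siSRSF2 were tight and above the highest WT value, but it shares exon positions with the same-strand entry CTD-2561J22.3. By contrast, the array from ZNF653 to ZNF791 (11483427 to 12640098) had 28 genes, 18 tested, 5 higher, 2 lower and a median of 0.19, and its 19 other tested genes had a median of 0.50, with 5 higher and 2 lower.

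The other large arrays held rises and falls side by side. In the array from ZNF557 to ZNF846 (7069444 to 9793180), 5 of 14 tested genes rose and 5 fell, at a median of -0.05. Its smallest p belonged to ZNF317, with 25.8, 25.7 and 24.6 CPM in siSRSF2 against 38.1, 38.2 and 39.7 CPM in WT and a log2 fold change of -0.61 (SE 0.059, adjusted p = 1.36e-09). From ZNF575 to ZNF296 (43525497 to 45076588), 5 of 20 rose and 6 fell, at a median of 0.12, and from ZNF175 to ZNF331 (51571298 to 53580269), 8 of 31 rose and 7 fell, at a median of -0.01. The most distal array, from ZNF628 to ZNF446 (55476332 to 58481230), is the largest, with 60 genes, 43 tested, 11 higher, 14 lower and a median of -0.11. There ZNF587B, which has 11.6% of its 50-base words in other genes, fell to 17.9, 19.6 and 19.5 CPM in siSRSF2 against 29.4, 32.7 and 32.0 CPM in WT (log2 fold change -0.72, SE 0.068). It also shares exon positions on its own strand with ZNF586 and CTD-2583A14.10. The 2 small arrays, ZNF554 to ZNF77 and ZNF807 to ZNF792, had 5 tested genes each, with 2 higher and 2 lower, and 1 higher and 2 lower. In the second of them ZNF30 had the smallest p and fell by 0.77 (SE 0.168). With library totals the medians of 7 of these 9 arrays changed sign, from negative to positive, and the medians of the other 2 stayed positive.

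**Figure D3:**
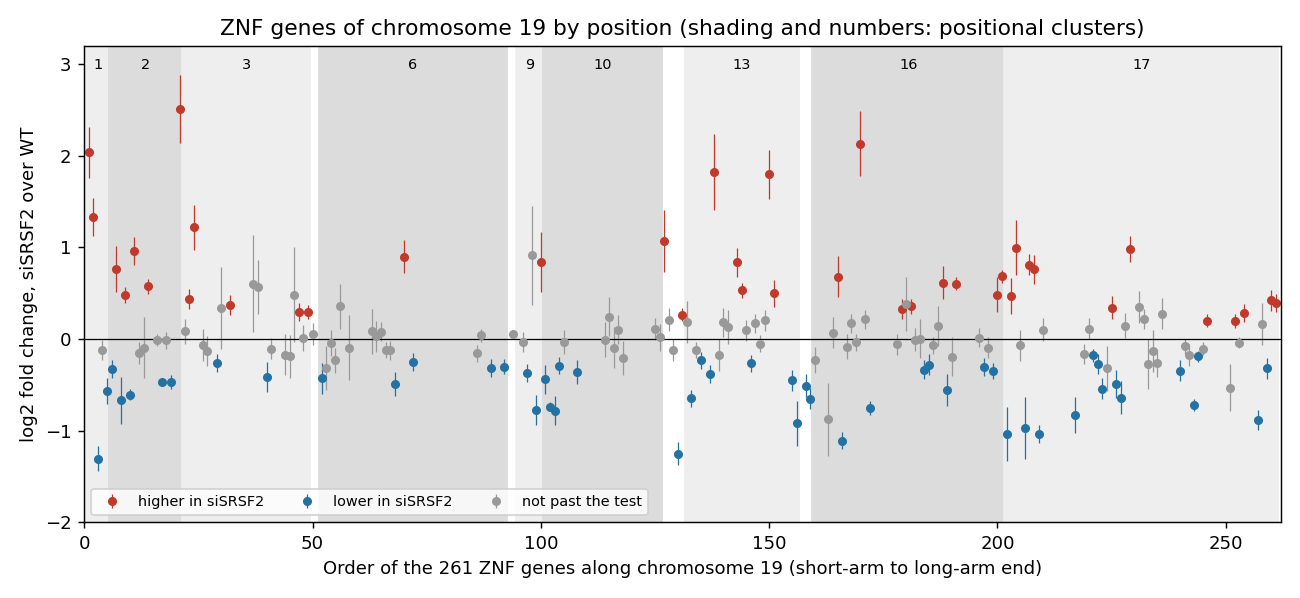
log2 fold change (siSRSF2 over WT) with its standard error for the 176 tested genes, in their order along chromosome 19, with arrays of 5 or more genes shaded and numbered among the 17 arrays. Array 10 (ZNF565 to ZNF573) holds 5 falls and 0 rises, and each other shaded array holds both higher and lower genes.

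Neighbouring genes did not move together as a rule. Over 131 pairs of next-neighbour ZNF genes of 1 array, both tested, Pearson's r of the 2 log2 fold changes was -0.01 and Spearman's rho -0.01, a description across genes that share libraries. Both genes were called in 34 pairs, and these were 8 pairs with both higher, 9 with both lower and 17 with opposite signs. Leaving out pairs that share exon positions left 118 pairs, r of -0.06, and 6, 7 and 17 pairs. By strand, r was 0.07 over 82 pairs on the same strand, -0.10 over 22 divergent pairs and -0.08 over 27 convergent pairs. The first array shows the contrast over short distances: ZNF554 and ZNF555 rose, ZNF556 fell, ZNF57 was not past the test (log2 fold change -0.12, SE 0.113) and ZNF77 fell by 0.57 (SE 0.138). A further case is ZNF615 and ZNF614, on the same strand with starts 21433 bases apart. ZNF615 was at 2.28, 2.72 and 2.11 CPM in siSRSF2 against 1.53, 0.985 and 1.92 CPM in WT, a rise of 0.68 (SE 0.224, adjusted p = 0.0105), next to ZNF614 at -1.11. Another is ZNF784, which fell by 0.97 (SE 0.338), beside ZNF580, which rose by 0.81. ZNF615, ZNF784 and the other genes named only as neighbours were picked after their values were seen.

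**Figure D4:**
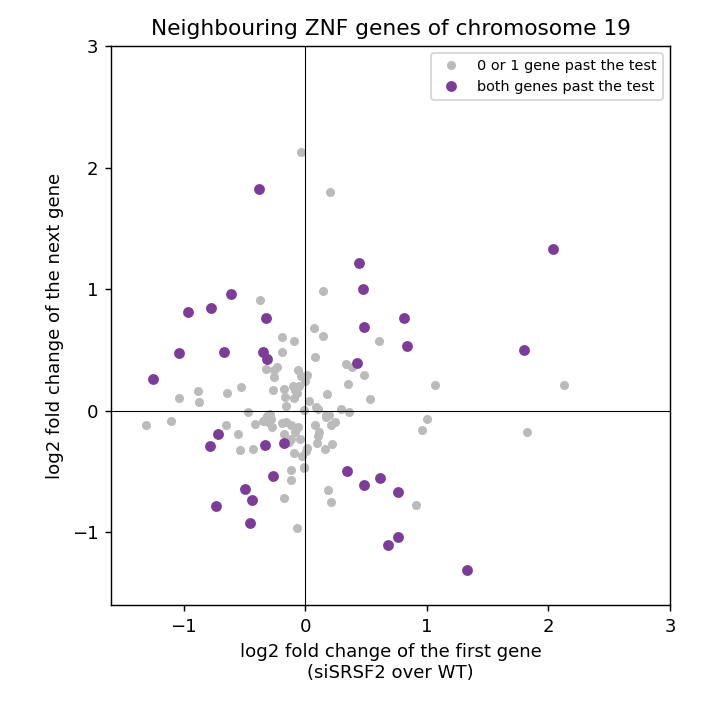
log2 fold changes (siSRSF2 over WT) of next-neighbour ZNF genes, the gene nearer the short-arm end on the x axis, for 131 pairs. Purple points are the 34 pairs with both genes called, of which 17 lie in the quadrants of opposite sign.

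By protein type, 207 of the 244 coding genes carry a KRAB-like pattern in the GENCODE coding sequence and 37 do not, and the median number of finger units was 12. Of all tested genes in the data, 59.1% were called, 30.1% higher and 29.0% lower. Of 143 tested ZNF genes with the pattern, 31 rose and 40 fell (49.7% called), and the median was -0.04. Of 27 tested genes without it, 7 rose and 11 fell (66.7% called), and the median was -0.12. The group without it includes ZNF146, ZNF121, ZNF574 and ZNF787 among the falls and ZNF524 and ZNF580 among the rises. The pattern search is approximate, and the 2 groups were not tested against each other. Finger units had medians of 12 for genes higher, 12 for genes lower and 13 for genes not past the test.

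Overlap and sequence likeness limit single genes. Exon positions are shared with another entry in 143 of the 261. Named genes above that do so include ZNF419, ZNF493, ZNF587B, ZNF296 and ZNF71 on the same strand. ZNF555, ZNF524, ZNF628, ZNF428, ZNF460 and ZNF558 do so on the opposite strand, and ZNF544 and ZNF93 on both. Among 72 tested genes that share none, 14 rose and 26 fell, at a median of -0.09, and among 104 that share some, 26 rose and 25 fell, at a median of -0.04. Of all tested genes in the data, 30.1% were higher and 29.0% lower. Across 258 genes with transcripts, a median of 1.34% of 50-base words was also found in other genes, and 18 genes were above 10%, of which 4 were called. ZNF468 was the highest, with 53.6%, mostly in ZNF320, and its log2 fold change of -0.28 (SE 0.119) is uncertain for that reason.

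KRAB zinc-finger proteins act through shared partners, so 29 genes of that machinery were read in the same fit. Of these, 7 were higher (24.1%) and 13 lower (44.8%) in siSRSF2, 9 were not past the test, and the median log2 fold change was -0.07. In all 69.0% were called, beside 59.1% of all tested genes (30.1% higher, 29.0% lower). The list's median level was 106.2 CPM. At 30 CPM or more, 83.5% of 4591 protein-coding genes that are not ZNF genes were called (25.7% higher, 57.7% lower). TRIM28, the corepressor that KRAB binds, was at 52.9, 56.1 and 54.3 CPM in siSRSF2, against 93.5, 94.6 and 92.4 CPM in WT. The libraries of each group were close to each other and far from the other group, with a log2 fold change of -0.78 (SE 0.048, adjusted p = 1.84e-13). TRIM28 lies on chromosome 19 itself (chr19:58544091-58550722, plus), just beyond the most distal ZNF array. SETDB1, the histone H3 lysine methyltransferase of this complex, was at 40.3, 42.3 and 44.9 CPM in siSRSF2 against 43.8, 44.6 and 43.3 CPM in WT, overlapping, at a log2 fold change of -0.05 (SE 0.056, adjusted p = 0.509), and the sign turned under library totals.

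Among the other lower genes of the machinery, PPHLN1, a subunit of the HUSH silencing complex, was at 80.6, 78.3 and 80.7 CPM in siSRSF2 against 120, 122 and 119 CPM in WT (log2 fold change -0.59, SE 0.045). MTA2, a subunit of the NuRD deacetylase complex, was at 67.7, 67.5 and 70.1 CPM in siSRSF2 against 105, 105 and 103 CPM in WT (-0.60, SE 0.046). CBX3, the heterochromatin protein HP1 gamma, was at 188, 172 and 173 CPM in siSRSF2 against 256, 256 and 247 CPM in WT (-0.51, SE 0.046). For each of the 3 the groups did not overlap. The 7 higher genes include the NuRD subunits CHD3 (0.45, SE 0.045), CHD4 (0.20, SE 0.045) and MTA1 (0.45, SE 0.046), so NuRD members moved both ways, and the chromatin remodeller ATRX (0.41, SE 0.047). ATF7IP2, a relative of the SETDB1 partner ATF7IP, had the largest log2 fold change, 2.21 (SE 0.264), at a mean of 2.30 CPM in siSRSF2 against 0.496 CPM in WT. With library totals 11 were higher and 12 lower, and against a change of 1.2-fold 4 were higher.

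**Figure D5:**
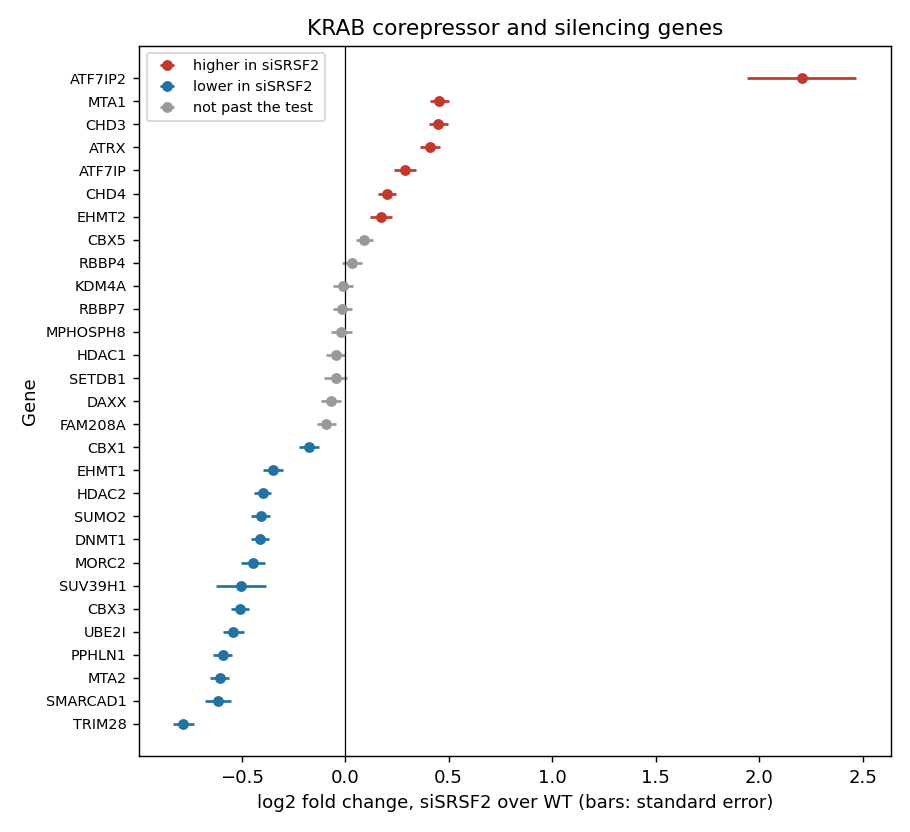
log2 fold change (siSRSF2 over WT) with its standard error for 29 genes of the KRAB corepressor and heterochromatin machinery, ordered by value. TRIM28 has the lowest value, -0.78, and ATF7IP2 the highest, 2.21.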

How the data were processed

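Per the labels' protocols, TRI Reagent was used to isolate AGS RNA and the libraries were built with SMARTER mRNA-Seq chemistry. The deposited values are raw counts of reads per gene in the 6 libraries, without normalization. Per the submitters' processing notes, the aligner was HISAT2 2.0.5, the counter featureCounts 1.5.0-p3 and the build mm10, which is of mouse. Names and positions in the deposited table are human, and of 258 ZNF names found once in GENCODE 29 (GRCh38), 245 had the same position, so positions are given as GRCh38. Whether counting used strand, and how it treated multi-mapping reads, is not stated in the sources used here.

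The test was run with edgeR 4.0.16 in R 4.3.3 (filterByExpr, minimum count 10; TMM; robust quasi-likelihood F test; Benjamini-Hochberg at 0.05 over all 23689 tested genes), with group as the only term. The biological coefficient of variation was 6.27% in common over genes, and CPM uses TMM-scaled library sizes. No 2 libraries of a group agreed within sampling noise (chi-square of 3.83 to 8.75 per gene). Without molecular identifiers, floors of 3 counts cover counting error only. The procedure was also run on simulated data, in which every gene had the common coefficient of variation and a small set of genes changed, all upward. That setting is simpler than these data, so it does not measure the error rate of the calls here. Finger units and KRAB patterns were counted in GENCODE coding sequences, and promoter windows came from RefSeq GRCh38.p14.

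The genes and lists were chosen with earlier results of these data known. Named genes were the 8 largest rises and falls past the test that averaged 1 CPM or more in the higher group without overlap, the 5 highest by FPKM, 9 with a known role, the smallest p of each array with 5 or more genes, and, of the KRAB machinery, the 4 smallest p with TRIM28 and SETDB1. Genes named outside this rule are said to be so or stand in counts of their group: ATF7IP2, CHD3, CHD4, MTA1, ATRX, ZNF57, ZNF77, ZNF260, ZNF468, ZNF565, ZNF566 and ZNF567 were chosen after their values were seen. Alternatives were DESeq2 1.42.0, median-of-ratios (RLE) factors, library totals, no filter, a mean CPM of at least 1, a test against 1.2-fold, a block for the replicate number, each of the 6 libraries left out and, for counts of ZNF genes, genes sharing exons left out. A marker gene of another cell type is not reported here.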

Additional observations from a re-analysis of the deposited data

How the results depend on the processing

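Of the 91 called ZNF genes, 91 kept their call with RLE factors, 89 with the replicate block, 83 without the filter, 75 at a mean CPM of at least 1, 70 under library totals, 69 with DESeq2 and 52 against a 1.2-fold change. The counts moved by over 1.5 times against 1.2-fold (25 higher, 27 lower) and under library totals for lower genes (30). Leaving out genes that share exons gave 14 higher and 26 lower of 72 tested genes. Smaller counts follow by construction, since fewer genes entered, but the split changed as well. Of the 72, 19.4% were higher and 36.1% lower, beside 22.7% and 29.0% of all 176 tested ZNF genes. Without 1 library at a time, 33 to 39 were higher and 40 to 47 lower, 6 to 8 of the KRAB machinery were higher and 13 to 13 lower, and SRSF2 ran from -1.06 to -0.94. The median log2 fold change of the ZNF genes was 0.0841 under library totals, -0.0837 without the filter, -0.0121 at a mean CPM of at least 1, -0.0940 without genes that share exons and -0.0825 to -0.0179 without 1 library. Counts of the KRAB machinery higher in siSRSF2 were 11 under library totals and 4 against 1.2-fold.

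Among named genes, sign changes were of genes not past the test: SETDB1 (0.0849 under library totals, 0.0052 at a mean CPM of at least 1), ZNF428 (0.0112 under library totals), ZNF544 (0.0908 under library totals, 0.0112 when mean CPM had to be 1 or more, and -0.0831 to 0.0087 without 1 library, above 0 at 0.0065 without siSRSF2 replicate 1 and at 0.0087 without WT replicate 1) and ZNF91 (-0.0337 without the filter, and -0.0152 to 0.1143 without 1 library, below 0 without WT replicate 1). ZNF274 and ZNF460 lost their calls in 6 and 8 alternatives (adjusted p up to 0.716 and 0.801); the cause was not tested. The other called ZNF genes named by the stated rule kept sign and call wherever they were tested. These statements on signs and calls cover only genes named by that rule. Genes picked after their values were seen were not followed singly through the alternatives.

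Same-numbered libraries correlated at 0.01, -0.05 and -0.05 in their deviations, so no shared effect of the replicate number was seen. Whether same-numbered libraries were prepared as pairs cannot be told from this. The replicate block gave 40 higher and 49 lower. The 85 untested genes had at most 54 counts in all over the 6 libraries, and no change in them was tested.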

Other observations

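Antisense and readthrough entries named after these genes fell outside the selection. Of 11 antisense entries on chromosome 19, 3 were tested and 1 was called. ZNF561-AS1 (chr19:9621291-9645896, plus strand) was at 1.44, 1.40 and 1.21 CPM in siSRSF2 libraries, against 0.63, 0.832 and 0.422 CPM in WT libraries, with no overlap and a log2 fold change of 1.10 (SE 0.288, adjusted p = 0.00179). The 3 readthrough entries, which join neighbouring ZNF genes, were tested and none was past the test in edgeR: ZNF559-ZNF177 at -0.11 (SE 0.136), ZNF625-ZNF20 at 0.50 (SE 0.295) and ZNF816-ZNF321P at 0.25 (SE 0.155). Reads of these entries and of the genes they overlap cannot be told apart without the strand and overlap settings of the counting.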
